A study of Mus musculus with 13 samples.

Results

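The genes described here are 10 core genes of the microRNA pathway in mouse cortex: the Argonautes Ago1, Ago2, Ago3 and Ago4, the processing genes Drosha, Dgcr8 and Dicer1, and the GW182 genes Tnrc6a, Tnrc6b and Tnrc6c. They were taken by symbol from the 17562 genes that the authors' deposited tables list, and all 10 have a row in each table. Ago3 was chosen by its negative fold changes in both mutant groups, so its values against wild type are given as a description and support nothing. The other 9 came in as members of its family and pathway, with the results of the tables already known. The cortex RNA of 13 male mice, each 18 months old, was sequenced. They were 5 wild-type mice (Grn+/+), 4 Grn+/- mice with a single copy of mouse progranulin, and 4 Grn-/-; GRNtg mice, called humanized below, that have no mouse Grn and bear a transgene of human GRN. No source used here gives the promoter of the transgene. The files used hold the authors' comparisons of these groups and no values per mouse, so each gene is given by its mean level, its fold changes and their standard errors (SE).

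MicroRNAs are short RNAs that lower the output of messenger RNAs they pair with. Drosha and its RNA-binding partner Dgcr8 cut the primary transcript in the nucleus, Dicer cuts the exported hairpin in the cytoplasm, and 1 strand is loaded into an Argonaute protein. The Argonaute then binds a GW182 protein, which recruits the enzymes that shorten the poly(A) tail of the target. In neurons the pathway also acts near synapses, where it tunes local protein synthesis. Ago2 is the Argonaute known for cutting targets.

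The Argonautes resemble each other, which matters for the counting of their reads. Over the coding sequence Ago3 was 75.7% identical to Ago1, 75.3% to Ago4 and 72.1% to Ago2 (RNA of the longest coding transcripts, GENCODE M21 on GRCm38). The longest exact run that Ago3 shares with Ago1 lies in coding exon sequence, in exon 12 of 19 in both genes, and is shown because reads inside it fit both genes equally well. Capitals mark the shared run of 170 bases and lower case the 10 bases on each side, 5′ to 3′ on the transcribed strand, and the coordinates are those of the run.
Ago3, chr4:126363657-126363826: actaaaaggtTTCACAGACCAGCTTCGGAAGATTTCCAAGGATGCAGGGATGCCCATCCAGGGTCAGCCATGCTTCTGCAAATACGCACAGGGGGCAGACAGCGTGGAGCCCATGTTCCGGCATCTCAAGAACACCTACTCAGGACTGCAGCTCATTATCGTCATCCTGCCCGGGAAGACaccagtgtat
Ago1, chr4:126448778-126448947: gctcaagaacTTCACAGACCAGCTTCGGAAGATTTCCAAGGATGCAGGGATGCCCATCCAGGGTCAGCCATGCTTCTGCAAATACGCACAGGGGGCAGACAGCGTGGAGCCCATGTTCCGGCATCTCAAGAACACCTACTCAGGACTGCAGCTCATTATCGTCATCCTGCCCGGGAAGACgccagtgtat
Such stretches are a small part of these transcripts. Only 121 of 15546 windows of 50 bases in the Ago3 transcript occur in another Argonaute, against 125 of 7178 for Ago1, 4 of 13751 for Ago2 and 0 of 6488 for Ago4. Exons of Ago1, Ago3, Ago4, Dicer1 and Tnrc6c overlap no other annotated gene. The largest overlap among the others is that of Dgcr8 with Trmt2a on the opposite strand, over 10.7% of Dgcr8 exon sequence. On the same strand Dgcr8 overlaps Gm49776 over 4.25%. How reads in such stretches were counted is not known, so their effect on the values of Dgcr8 is not known either.

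Promoter sequences are shown next for the members whose RNA passed the test below and that have an entry. They are the 250 bases before the RefSeq start, from RefSeq (GRCm38.p6), and 9 of the 10 members matched an entry, Ago2 not. Capitals mark matches to GGGCGG (the GC box) and CCAAT on either strand, and overlapping matches were each counted. The TATA box (TATAAA), the E-box (CACGTG) and the cyclic AMP response element (TGACGTCA) were also searched on both strands.
Ago3, chr4:126429543-126429792, minus strand: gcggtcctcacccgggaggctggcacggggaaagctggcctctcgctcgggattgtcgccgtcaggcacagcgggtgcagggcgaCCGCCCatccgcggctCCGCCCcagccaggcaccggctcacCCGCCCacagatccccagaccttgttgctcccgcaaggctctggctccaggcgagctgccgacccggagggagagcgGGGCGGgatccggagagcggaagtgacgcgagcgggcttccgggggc
Dicer1, chr12:104751953-104752202, minus strand: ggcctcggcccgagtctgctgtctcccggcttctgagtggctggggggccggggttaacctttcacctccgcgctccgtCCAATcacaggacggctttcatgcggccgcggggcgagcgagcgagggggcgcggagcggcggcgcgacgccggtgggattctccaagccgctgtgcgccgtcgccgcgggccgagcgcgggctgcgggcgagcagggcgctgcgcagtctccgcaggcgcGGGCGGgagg
Tnrc6b, chr15:80711063-80711312, plus strand: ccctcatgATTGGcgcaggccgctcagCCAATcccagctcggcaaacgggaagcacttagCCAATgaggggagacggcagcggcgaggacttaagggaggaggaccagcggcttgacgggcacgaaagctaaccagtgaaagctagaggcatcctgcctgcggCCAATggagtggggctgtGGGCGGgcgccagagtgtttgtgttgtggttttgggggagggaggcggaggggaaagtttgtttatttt
Drosha, chr15:12824565-12824814, plus strand: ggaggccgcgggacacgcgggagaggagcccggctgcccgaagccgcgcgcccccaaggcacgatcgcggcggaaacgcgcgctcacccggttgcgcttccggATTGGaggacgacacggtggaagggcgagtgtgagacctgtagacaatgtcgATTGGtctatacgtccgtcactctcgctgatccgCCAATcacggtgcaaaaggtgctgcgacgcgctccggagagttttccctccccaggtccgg
Ago3 holds 4 GC boxes and no CCAAT, Dicer1 holds 1 of each, Tnrc6b holds 1 GC box and 4 CCAAT, and Drosha holds 3 CCAAT and no GC box. None of these 4 windows holds a TATA box, an E-box or a cyclic AMP response element. RefSeq gives Tnrc6b a second start, and its window, chr15:80798360-80798609, holds 1 E-box, no GC box and no CCAAT. Members that did not pass carry GC boxes too: 2 in Ago1, 5 in Ago4 and 1 in Dgcr8, with none in Tnrc6a and Tnrc6c. Among 16402 promoters of the same length, the GC box was found in 52.3%, CCAAT in 34.5%, the TATA box in 7.49%, the E-box in 7.68% and the cyclic AMP response element in 2.32%. A match describes the letters and shows no binding.

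Levels of the members in this cortex differed widely. Per kb of exon, as the authors' mean normalized count over all libraries divided by exon length, Drosha was the highest at 530, above 90.0% of genes. Ago1 at 221, Tnrc6c at 204 and Tnrc6a at 156 came next on that per-kb scale, all in the upper part of the genes. Dgcr8 at 97.5, Dicer1 at 71.8, Tnrc6b at 54.3, Ago2 at 48.8 and Ago4 at 45.7 lay near the middle, between the 43.9th and the 59.0th percentile of level per kb. Ago3 was the lowest member at 5.64 per kb, the 19.3rd percentile. The mean normalized counts behind these levels ran from 93.4 for Ago3 to 3145 for Drosha in the authors' deposited tables. Spread between mice is not part of these values, so neighbours in this order were not tested.

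Rows of cell type markers were set beside the labelled tissue. Every marker fixed for cortical excitatory, inhibitory and glial cells is listed in the authors' deposited tables. All 4 striatal markers are listed too (mean normalized counts of 66.6 to 2614), so being listed does not single out cortex. Of choroid plexus markers 0 of 3 are listed, and of blood markers 1 of 3 (Alas2, at 62.1). No source used here says why a gene has no row, so a missing row does not show absent RNA. Grn itself, the gene made deficient, was at 63.6% of wild type in Grn+/- mice (log2 fold change -0.65 ± 0.077, SE) and at 24.7% in humanized mice (-2.02 ± 0.081) in the authors' deposited tables. The depth of single libraries is unknown, and the mean normalized counts add up to 18113972 over the genes. In bulk tissue, fewer cells of a type and less RNA per cell cannot be told apart, and that holds for every difference below.

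In Grn+/- cortex, Ago2, Ago3, Dicer1 and Tnrc6b were lower than in wild type, and no member was higher. A gene counts as lower or higher, here and below, where the authors' adjusted p is under 0.05. That made 4 of 10 members in the authors' deposited table, 3 of the 9 without Ago3, against 6.8% of all 13482 genes in either direction, 4.51% lower and 2.29% higher. Fold changes were negative for 8 of 10 members, with a median of -0.14 on the log2 scale beside 0.01 for all genes of the authors' deposited table.

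Among the Argonautes, Ago3 had the most negative fold change in Grn+/- mice. Its RNA was at 57.3% of wild type (95% interval 47.6% to 69.1%, log2 fold change -0.80 ± 0.137, SE) in the authors' deposited table. Ago2 was at 67.2% of wild type (57.5% to 78.6%, log2 fold change -0.57 ± 0.115, adjusted p = 0.00014) in the authors' deposited table. The remaining pair, Ago1 and Ago4, did not pass. Ago4 had a log2 fold change of -0.19 ± 0.088 (adjusted p = 0.18) and Ago1 one of -0.08 ± 0.066 (adjusted p = 0.51) in the authors' deposited table. All 4 Argonautes had negative values, and outside Ago3 only Ago2 passed after adjustment over all genes. The unadjusted Wald p of Ago4 was 0.030, with a 95% interval of -0.36 to -0.02. The SE of Ago3 is larger than that of 95.4% of genes in the authors' deposited table and lies close to the table's highest value of 0.138, so its fold change is the least precise of the 10.

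Of the processing genes, only Dicer1, which makes the mature duplex, was lower in Grn+/- mice. It stood at 84.0% of wild type (log2 fold change -0.25 ± 0.085, adjusted p = 0.046) in the authors' deposited table. Drosha had 0.07 ± 0.041 (adjusted p = 0.32) and Dgcr8 -0.02 ± 0.060 (adjusted p = 0.90) in the authors' deposited table, so neither nuclear partner passed.

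One GW182 gene was lower in Grn+/- mice. Tnrc6b was at 84.1% of wild type (77.0% to 91.8%, log2 fold change -0.25 ± 0.065, adjusted p = 0.0054) in the authors' deposited table. Its paralogs Tnrc6a (-0.08 ± 0.075, adjusted p = 0.60) and Tnrc6c (0.01 ± 0.051, adjusted p = 0.95) did not pass in the authors' deposited table. These Wald statistics were spread more widely than a standard normal over all genes of the table, by a factor of 1.5. Once they were divided by that spread, 0 of 10 members and 3 of all genes passed (adjusted p = 0.20 for Ago2, 0.50 for Tnrc6b and 0.75 for Dicer1).

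In humanized cortex, Ago2 and Ago3 were again lower than in the same wild-type mice, and Drosha was higher. That is 3 of 10 members in the authors' deposited table, 2 of the 9 without Ago3, against 4.87% of all 14961 genes in either direction, 3.05% lower and 1.81% higher. Fold changes were negative for 7 of 10 members, with a median of -0.16 beside 0.01 for all genes of the authors' deposited table.

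Ago3 was at 67.4% of wild type (55.9% to 81.2%, log2 fold change -0.57 ± 0.137) in humanized mice, in the authors' deposited table. Ago2 was at 74.3% (63.5% to 86.8%, log2 fold change -0.43 ± 0.115, adjusted p = 0.011) in the authors' deposited table. Ago4 (-0.18 ± 0.088, adjusted p = 0.21) and Ago1 (-0.15 ± 0.066, adjusted p = 0.17) were negative without passing in the authors' deposited table. As in Grn+/- mice, Ago2 and Ago3 had the most negative values of the family, although both comparisons use the same 5 wild-type mice and are not independent.

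Drosha, the nuclear nuclease, was 110.0% of wild type (104.0% to 116.2%, log2 fold change 0.14 ± 0.041, adjusted p = 0.026) in humanized mice in the authors' deposited table. It has the highest level and the smallest SE among the members. Dgcr8, which works with it, had 0.06 ± 0.059 (adjusted p = 0.60) in the authors' deposited table, and Dicer1 had -0.21 ± 0.085 (adjusted p = 0.12). Among GW182 genes none passed in humanized mice: Tnrc6b had -0.17 ± 0.065 (adjusted p = 0.088), Tnrc6a -0.10 ± 0.075 (adjusted p = 0.44) and Tnrc6c 0.07 ± 0.051 (adjusted p = 0.43) in the authors' deposited table. After division by the robust spread of 1.56, 0 of 10 members and 5 of all genes passed (adjusted p = 0.98 for Ago2 and 0.99 for Drosha). With the median fold change at each abundance removed, Drosha had an adjusted p of 0.061.

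**Figure D1:**
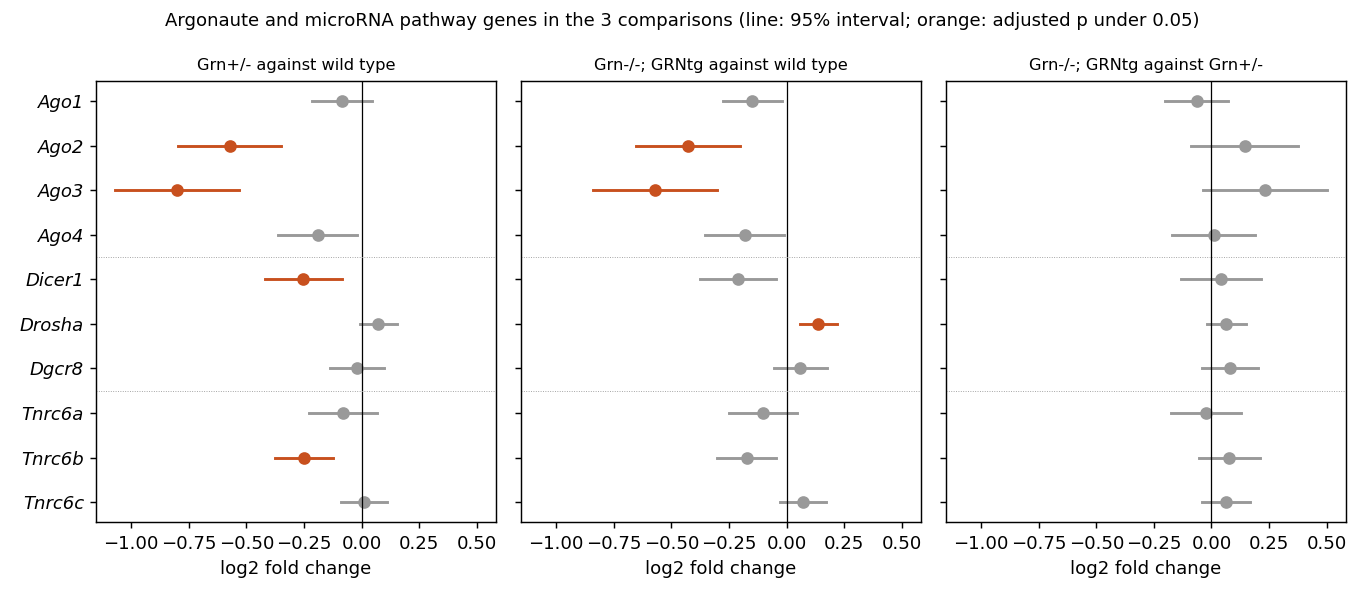
Log2 fold changes of the 10 genes in the authors' 3 comparisons, 1 panel each, with 95% intervals from the deposited SE as lines and genes with adjusted p under 0.05 in orange. Ago3 and Ago2 lie farthest to the left in both comparisons with wild type (-0.80 and -0.57 in Grn+/-, -0.57 and -0.43 in humanized mice), and the points of the comparison between mutants lie between -0.06 and 0.23.

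Between the mutant groups, no member passed. In humanized against Grn+/- mice 0 of 10 members passed in the authors' deposited table, and 0 had an unadjusted p under 0.05, where 0.467% of all 17562 genes passed, 0.148% lower and 0.319% higher. Ago3 had a log2 fold change of 0.23 (-0.04 to 0.50, adjusted p = 0.66) and Ago2 one of 0.14 (-0.09 to 0.38, adjusted p = 0.80) in the authors' deposited table. The values of the other 8 ran from -0.06 for Ago1 to 0.08 for Dgcr8 and Tnrc6b in the authors' deposited table. These intervals allow a difference for Ago3 of up to 0.50 in favour of humanized mice, so a lack of difference between the mutants was not shown. The lower Dicer1 and Tnrc6b in Grn+/- mice (log2 fold changes between the mutants of 0.04 ± 0.089 and 0.08 ± 0.068) and the higher Drosha in humanized mice (0.07 ± 0.043) likewise did not pass as differences between the mutants in the authors' deposited table.

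The members differ in transcript length and in the length of the 3′ untranslated region (3′ UTR), neither of which the choice used. The longest coding transcript of Tnrc6b measures 17.33 kb with a 3′ UTR of 11.61 kb, that of Ago3 15.6 kb with 12.74 kb, and that of Ago2 13.8 kb with 11.06 kb. All 3 are longer than 99% of transcripts, at percentiles of 99.8, 99.7 and 99.4. Dicer1 follows at 9.85 kb, with a 3′ UTR of 3.85 kb. Ago1, which did not pass, has a longer 3′ UTR than Dicer1, at 4.49 kb in a transcript of 7.23 kb, and Ago4, which did not pass either, has 3.68 kb in 6.54 kb. The 4.49 kb of Ago1 is the longest 3′ UTR among members that passed in neither comparison with wild type. Those of Ago2, Ago3 and Tnrc6b are longer, and the part of 3′ UTR length in these results was not tested. Drosha, the member that was higher in humanized mice, has a transcript of 4.57 kb with a 3′ UTR of 0.17 kb, and Dgcr8 one of 4.32 kb with 1.57 kb. Tnrc6a at 8.18 kb and Tnrc6c at 8.85 kb have long transcripts too, and neither passed.

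Fold changes against wild type were more negative for genes with longer transcripts, over all genes of the authors' deposited tables. With genes split into 20 equal bins by length, the longest bin in Grn+/- mice held 653 genes of 8.49 kb or more, among them Ago2, Ago3, Dicer1, Tnrc6b and Tnrc6c. Its median log2 fold change was -0.17, and 28.0% of its genes were lower and 0.306% higher in the authors' deposited table. The shortest bin had a median of 0.06. In humanized mice the longest bin, of 714 genes, had a median of -0.12, with 14.6% lower and 0 higher. With Ago3, whose fall led to its choice, left out, 3 of the other 4 members in the longest bin were lower in Grn+/- mice and 1 of 4 in humanized mice. Only these 5 of the 10 members were in that bin, and no member outside it was lower in either comparison. Few genes were lower in the bins of those members too. The shares ran from 3.06% (bin of Drosha) to 14.55% (bin of Ago1 and Tnrc6a) in Grn+/- mice. In humanized mice they ran from 2.5% to 7.29% for the same bins.

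An analysis chosen after seeing the data subtracted each length bin's median fold change before testing. The longest bin ran from 8.49 to 123.2 kb in Grn+/- mice, with a median length of 10.2 kb. Ago2 (13.8 kb), Ago3 (15.6 kb) and Tnrc6b (17.33 kb) lie above that length, and Tnrc6c (8.85 kb) and Dicer1 (9.85 kb) below it. A trend inside the bin was not removed, so length remains mixed into the values of these genes. Ago2 in Grn+/- mice then had a log2 fold change of -0.40 (adjusted p = 0.022), and Ago3 had -0.63. Dicer1 (-0.08, adjusted p = 0.70) and Tnrc6b (-0.08, adjusted p = 0.60) no longer passed, and Tnrc6c passed as higher (0.18, adjusted p = 0.018). In humanized mice Ago3 had -0.45 and Ago2 -0.31 (adjusted p = 0.10), Drosha remained higher (0.14, adjusted p = 0.020), and Tnrc6c passed as higher (0.19, adjusted p = 0.010). Fold changes varied with transcript length, and the nuclear RNAs given below mostly had negative values. The part of these nuclear RNAs, and of the few cell type markers that passed, in the results for the members was not tested.

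**Figure D2:**
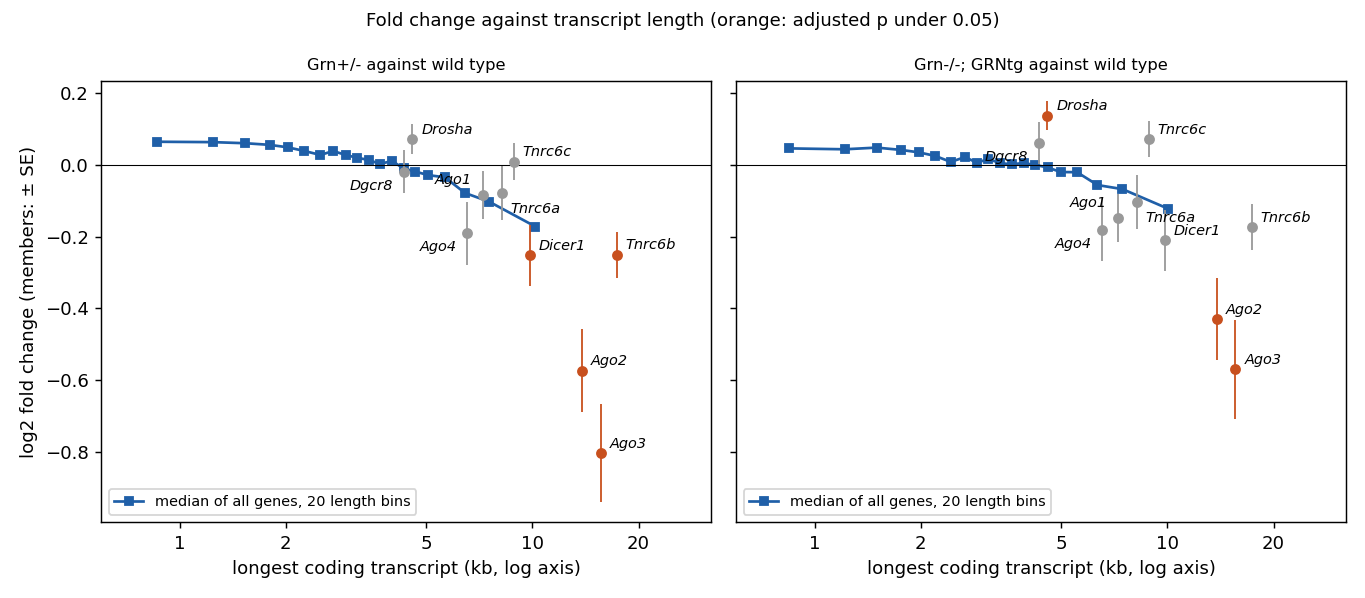
Log2 fold change against wild type over the length of the longest coding transcript (kb, log axis), for Grn+/- and humanized mice. Blue squares are the medians of all genes in 20 length bins and circles are the 10 members with their SE (orange: adjusted p under 0.05): Ago2 and Ago3 lie below the line in both panels, and Dicer1 and Tnrc6b lie close to the lowest square of -0.17 in Grn+/- mice.

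Nuclear-retained RNAs and reads assigned to no gene also moved with the groups. Nuclear-retained RNAs had negative fold changes for 10 of 11 in both comparisons with wild type in the authors' deposited tables. Their medians were -0.22 and -0.13. In Grn+/- mice 4 of the 11 were lower, beside 4.51% of all genes, and in humanized mice 1 of 11, beside 3.05%. Malat1, an abundant nuclear noncoding RNA, was lower in both, at -0.43 ± 0.109 (adjusted p = 0.0049) in Grn+/- and -0.62 ± 0.109 (adjusted p = 1.3e-05) in humanized mice, in the authors' deposited tables. Reads assigned to no gene were lower too, at -0.22 ± 0.052 in Grn+/- and -0.18 ± 0.052 in humanized mice, in the authors' deposited tables. Few cell type markers passed, and over all genes 6.8% passed in Grn+/- and 4.87% in humanized mice. In Grn+/- mice 1 of 3 neuronal markers was higher (Snap25, 0.29) and 2 of 5 astrocyte markers were lower (Slc1a2, -0.22, and Gja1, -0.26), while the astrocyte marker Gfap had 0.04, in the authors' deposited table. In humanized mice 1 of 5 excitatory neuron markers (Camk2a, -0.20) and 1 of 3 endothelial markers (Flt1, -0.36) were lower, while the excitatory marker Slc17a7 had 0.14, in the authors' deposited table. No marker of the other cell types passed in either comparison.

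Partners of the core genes were taken from lists of the pathway. Of 15 genes that act on primary microRNA transcripts or export the hairpin, 0 passed in Grn+/- mice (2 had an unadjusted p under 0.05) and 1 rose in humanized mice, in the authors' deposited tables. That gene is Ran, the GTPase that drives export, with a log2 fold change of 0.25 ± 0.070 (adjusted p = 0.017) in the authors' deposited table. Xpo5, the exporter of hairpins, had 0.11 ± 0.066 in Grn+/- and 0.07 ± 0.066 in humanized mice, and passed in neither of the authors' deposited tables. Of the partners of Dicer and Argonaute, 0 of 17 passed in Grn+/- mice (4 had an unadjusted p under 0.05) and 1 of 18 rose in humanized mice, in the authors' deposited tables. It was Snd1, a nuclease found in Argonaute complexes, with a log2 fold change of 0.21 ± 0.065 (adjusted p = 0.035) in the authors' deposited table. The medians of these lists were 0.02 and 0.03 in Grn+/- and 0.04 and 0.01 in humanized mice, near those of all genes (0.01 in both). Over all genes, 6.8% passed in Grn+/- mice and 1.81% were higher in humanized mice.

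Downstream of the Argonautes, RNA decay had 1 lower member in both groups. Xrn1, the cytoplasmic 5′ to 3′ exonuclease, was at -0.62 ± 0.136 (adjusted p = 0.00056) in Grn+/- and -0.44 ± 0.136 (adjusted p = 0.037) in humanized mice in the authors' deposited tables. It was the only 1 of 12 measured genes for tailing and decay of small RNAs that passed in either comparison. Over all genes, 4.51% were lower in Grn+/- and 3.05% in humanized mice. Of 31 genes for deadenylation, decapping and translational repression, 2 were lower and 0 higher in Grn+/- mice in the authors' deposited table, a share near that of all genes (4.51% lower). They were Cnot6, a catalytic subunit of the deadenylase that GW182 proteins recruit (-0.24 ± 0.074, adjusted p = 0.024), and Dcp2, the decapping enzyme (-0.27 ± 0.081, adjusted p = 0.018), in the authors' deposited table. In humanized mice Gigyf2 was higher (0.16 ± 0.052, adjusted p = 0.048) and Btg2 was lower (-0.43 ± 0.135, adjusted p = 0.040) of the same 31, in the authors' deposited table. With 1 gene each way, the 31 again lay near the shares of all genes (1.81% higher and 3.05% lower). Between the mutants none of the 4 lists had a member that passed in the authors' deposited table (unadjusted p under 0.05 for 1, 0, 1 and 3 genes).

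**Figure D3:**
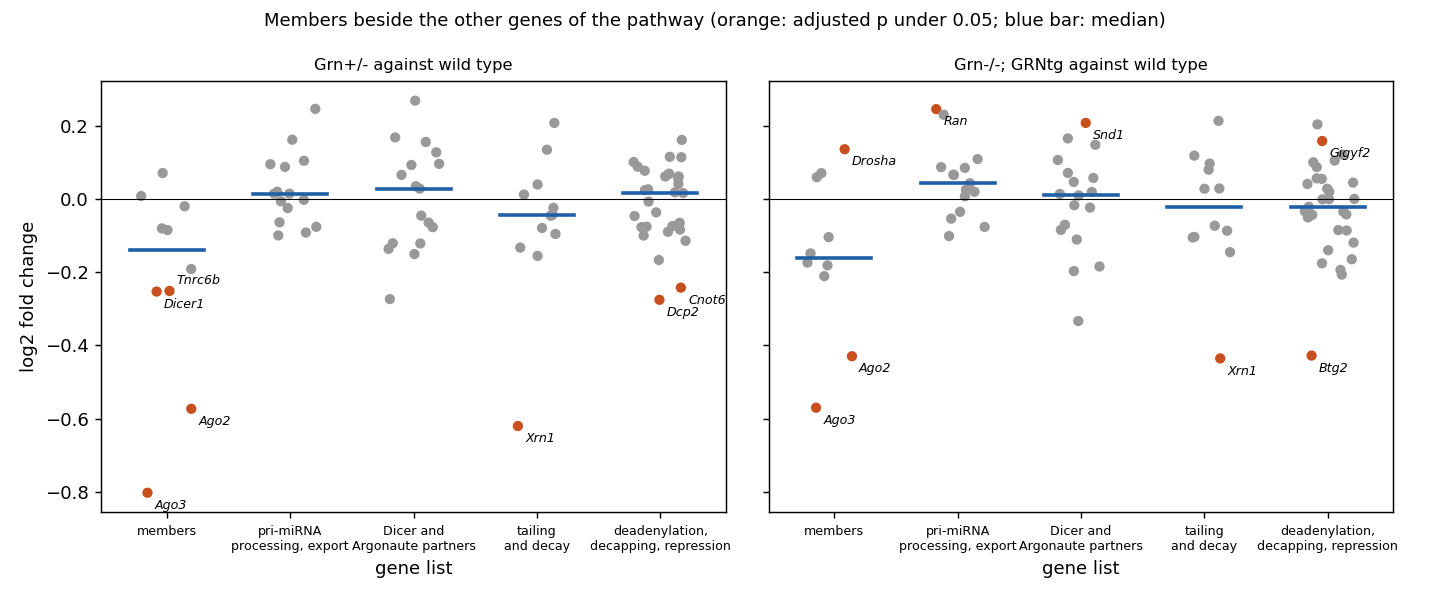
Log2 fold changes against wild type of the 10 members and of the other genes of the pathway in 4 lists, for Grn+/- and humanized mice (1 point per gene, orange where adjusted p is under 0.05, blue bar for the median). The lowest member in Grn+/- mice is Ago3 at -0.80, which was chosen for its fall. Without it the lowest member is Ago2 at -0.57, and the lowest gene of the lists is Xrn1 at -0.62. The list medians lie near 0.

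Argonaute genes 1, 3 and 4 lie side by side on chromosome 4, all on the minus strand. By GENCODE M21 on GRCm38, Ago3 covers chr4:126331704-126429556, Ago1 chr4:126435012-126468583 and Ago4 chr4:126489541-126533472. The start of Ago1 is 39.0 kb and that of Ago4 104 kb from the start of Ago3. Ago2 lies elsewhere, at chr15:73095844-73184935 on the minus strand. The other members lie apart from each other in the genome: Dicer1 at chr12:104687742-104751952, Drosha at chr15:12824815-12935291, Tnrc6b at chr15:80711313-80941085, Dgcr8 at chr16:18253948-18289246, Tnrc6a at chr7:123123885-123195296 and Tnrc6c at chr11:117654289-117763439. Of the 21 other genes starting within 500 kb of the cluster, 18 were measured in Grn+/- mice. There 1 was higher and 2 lower, beside 2.29% and 4.51% of all genes. Of 20 measured in humanized mice 0 were higher and 1 lower, beside 1.81% and 3.05%, in the authors' deposited tables. The genes that passed were Oscp1 (0.33 ± 0.095, adjusted p = 0.014), Stk40 (-0.33 ± 0.098, adjusted p = 0.019) and Sfpq (-0.34 ± 0.079, adjusted p = 0.0014) in Grn+/- mice, and Stk40 (-0.48 ± 0.099, adjusted p = 0.00028) in humanized mice, in the authors' deposited tables. Stk40 codes for a kinase-like protein, and Sfpq for a nuclear RNA-binding protein of paraspeckles. Medians of the neighbours were 0.07 in Grn+/- and 0.08 in humanized mice, above the values of Ago1, Ago3 and Ago4 in the same comparisons. An effect of the region was not tested.

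**Figure D4:**
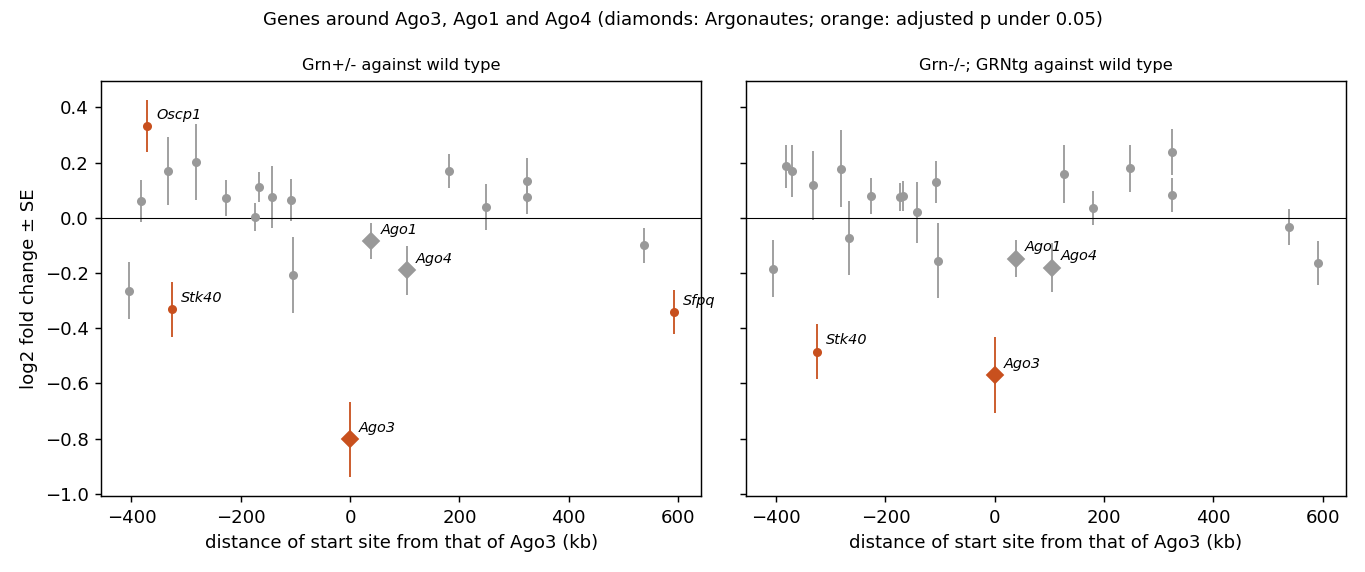
Log2 fold change with SE against the distance of each gene's start from the start of Ago3 (kb), for genes around the cluster on chromosome 4, in Grn+/- and humanized mice. Diamonds are Ago3, Ago1 and Ago4 and orange marks adjusted p under 0.05: Ago3 at 0 kb is the lowest point in both panels (-0.80 and -0.57), while Ago1, 39.0 kb away, lies at -0.08 and -0.15.

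The genes whose pair of fold changes against wild type came closest to that of Ago3 were found among 11369 genes with a mean normalized count of at least 100, by Euclidean distance over those 2 values. They were Sesn3 (distance 0.057), Prex2 (0.0895), Amer2 (0.108), Cbl (0.117) and Fam135b (0.138). In the same order their longest coding transcripts measure 9.12, 11.05, 10.51, 11.37 and 18.69 kb. These lengths lie at percentiles from 96.2 (Sesn3) to 99.9 (Fam135b), and the part of length in the likeness was not tested. Sesn3, a stress-response gene, had -0.76 ± 0.134 in Grn+/- and -0.53 ± 0.134 in humanized mice in the authors' deposited tables. Fam135b, the farthest of the 5, had -0.67 and -0.57 in the authors' deposited tables.

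The tables also hold precursors and hosts of microRNAs, the input of the pathway, but no level of a mature microRNA. Of 5 such rows in Grn+/- mice, 1 was lower, of 21 in humanized mice 0 passed (3 had an unadjusted p under 0.05) and of 160 between the mutants 0 passed (2 had an unadjusted p under 0.05), in the authors' deposited tables. Over all genes, 4.51% were lower in Grn+/- mice, and 4.87% passed in humanized mice and 0.467% between the mutants. The lowest mean normalized count with a row was 24.7 for Grn+/- and 6.83 for humanized mice against wild type, and 0.523 between the mutants. The 5, 21 and 160 rows are therefore different sets. The lower row is Mirg, the noncoding host of a microRNA cluster at chr12:109729764-109749460 on the plus strand, with a log2 fold change of -0.45 ± 0.086 (adjusted p = 7.3e-05) in the authors' deposited table. It is also 1 of the 4 nuclear-retained RNAs that were lower in Grn+/- mice. The host contains 14 annotated hairpins, 10 of them with a row of their own and mean normalized counts of 0.998 to 11.7 in the authors' deposited tables. These low counts lie under the lowest listed for Grn+/- mice against wild type (24.7). No hairpin was therefore tested in the comparison where Mirg was lower. The mature microRNAs of the 2 most counted hairpins are shown, since they are what the pathway would make from this host, from RefSeq (GRCm38.p6), 5′ to 3′, with the seed (bases 2 to 8) in capitals.
mmu-miR-3072-5p: aGGGACCCcgagggagggcagg
mmu-miR-3072-3p: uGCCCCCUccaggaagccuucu
mmu-miR-412-5p: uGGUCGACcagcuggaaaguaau
mmu-miR-412-3p: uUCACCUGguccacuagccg
These 4 have different seeds. Mir124a-1hg, a host of the neuronal microRNA miR-124, did not pass in either comparison with wild type, at -0.25 ± 0.106 (adjusted p = 0.13) in Grn+/- and -0.27 ± 0.106 (adjusted p = 0.11) in humanized mice, in the authors' deposited tables.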

How the data were processed

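RNA-seq libraries of cortex from 13 mice were made with a directional kit from total RNA, per the labels' protocols. Build mm10, R 4.1.2 and DESeq2 1.34.0 are named in the submitters' processing notes, with no role for each. No source used here names the aligner, the counter, the annotation or the strand setting. The 3 tables used are the authors' comparisons. Per the file headers, each deposited row has a signal, the mean normalized count of the libraries, and a log2 fold change with its SE. The deposited Wald statistic is a score, and the p-value and adjusted p-value are the authors' own. Recomputed Benjamini-Hochberg values matched those deposited. The fold changes of the 3 tables add up, as in a single fit. Rows that name no gene (2 in each table) were left out: no_feature held 17.0% and ambiguous 0.606% of all mean counts. The SE has a ceiling of 0.138. A prior on fold changes could give this and would draw those of low genes such as Ago3 towards 0, but no source used here says whether the authors set one.

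From these columns, 95% intervals (normal approximation), percents of the reference, counts and medians were computed with scipy 1.17.1, pandas 2.3.3 and numpy 2.4.6 under Python 3.11.15. No new model was fitted. Each Wald p-value sets a fold change between groups of these mice against its SE, and no label gives a batch. The members and lists were chosen with earlier results of these data known. Named genes are all members, Grn, Malat1, up to 6 genes of each list that passed an adjusted p of 0.05 (where none did, the 2 with the smallest p), passing neighbours within 500 kb, and the 5 genes most like Ago3. Xpo5, Mir124a-1hg and the markers named were chosen after their values were seen. Transcript lengths come from GENCODE M21 (GRCm38, the assembly mm10 names) and were found for 96.9% of the genes in all 3 tables. The alternatives tried changed thresholds, filters, centring, spread and trends with abundance, gene span and transcript length. The scripts were tested on simulated data.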

Additional observations from a re-analysis of the deposited data

How the results depend on the processing

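Members had 267 values under 9 other settings. Of these, 242 kept their direction and their side of the threshold, 18 lost the call, 2 gained it and 5 changed sign. Settings that changed only a threshold, a filter or the spread kept the deposited fold change, so direction could not change there. Most of the 242 belong to members that were not called at first and stayed so. The 18 lost calls all fell on the few values that had been called. In Grn+/- against wild type, the count of 4 members called became 2 where an absolute log2 change of 0.3 was required and 0 with the Wald statistic divided by its robust spread. In Grn-/-; GRNtg against wild type, the count of 3 became 1 with an adjusted p under 0.01 (Ago3) and 0 with the robust spread. Between the mutants it was 0 under every setting run. With the gene span trend removed, Dicer1 in Grn+/- mice had an adjusted p of 0.093. Genes called over the whole table fell from 917 to 357 (Grn+/-), 728 to 254 (humanized) and 82 to 35 (between the mutants) at an adjusted p under 0.01, and to 3, 5 and 29 with the robust spread. With a minimum log2 fold change they were 499, 454 and 69, with the transcript length trend removed 482, 580 and 81, and between the mutants 43 over shared genes and 36 over genes with a mean count of at least 100. With the abundance trend removed, Tnrc6c in Grn+/- mice was at -0.0024. With the transcript length trend removed, in Grn+/- mice Ago1 was at 0.0186 and Tnrc6a at 0.0231, and between the mutants Ago4 was at -0.0151 and Dicer1 at -0.0156. The cause was not tested. Ago3 has a mean normalized count of 93.4 and drops out at a minimum of 100. No paired analysis was possible because the files used hold comparisons with no values per mouse, and for the same reason no mouse could be left out.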

Other observations

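The PIWI-clade Argonautes, which bind small RNAs of the germ line, were listed for 1 of 3 genes in both comparisons with wild type. Piwil2 had a mean normalized count of 29.8 and log2 fold changes of -0.17 in Grn+/- and -0.29 in Grn-/-; GRNtg mice against wild type in the authors' deposited tables, and passed in neither. Piwil1 is listed only between the mutants, with a log2 fold change of 0.10 (adjusted p = 0.66) in the authors' deposited table. Of the other nuclear-retained RNAs, Rian (-0.23 ± 0.066, adjusted p = 0.012) and Kcnq1ot1 (-0.42 ± 0.101, adjusted p = 0.0023) were lower in Grn+/- mice in the authors' deposited table. Rian, like Mirg, is a maternally expressed noncoding RNA of the Dlk1-Dio3 imprinted region.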
